A study of Mus musculus with 6 samples.

Results

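Transcripts of the mitochondrial respiratory chain and of ATP synthase were measured in CD4+ T cells activated in vivo, with and without the histone deacetylase HDAC1. Members were the protein-coding rows of the deposited count table whose symbols stand for subunits of complexes I to V or for factors that share the same symbol stem. On nuclear chromosomes these were symbols that begin with Nduf followed by a, b, c, s or v, with Uqcr, with Cox4 to Cox8 or with Atp5, together with Sdha, Sdhb, Sdhc, Sdhd and Cyc1. On the mitochondrial genome they were the mt-Nd, mt-Co, mt-Cytb and mt-Atp genes. The rule used names and no measured value, and it took 108 of 55536 genes, of which 95 are nuclear and 13 are encoded in mitochondrial DNA. The 108 rows hold 107 symbols, because Atp5o has 2 gene identifiers. By role, the nuclear members are 7 core subunits, 29 supernumerary subunits and 8 assembly factors (Ndufaf genes) of complex I, 4 subunits of complex II, 9 of complex III, 20 rows of complex IV and 18 rows of complex V. Ndufa4 and Ndufa4l2 were placed with complex IV, where the Ndufa4 protein is found.

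All donor cells were CD45.2+ CD4+ T cells of strain C57BL/6 with the 2D2 transgene, which encodes a T cell receptor that recognises myelin oligodendrocyte glycoprotein (MOG). All also carried floxed Hdac1 alleles (Hdac1 fl/fl). HDAC1-cKO donors had the genotype 2D2-Hdac1 fl/fl-Cd4-Cre+, in which Cre recombinase is made under the Cd4 promoter, and WT donors were 2D2-Hdac1 fl/fl-Cd4-Cre-, with the floxed alleles and no Cre. The Cd4 promoter acts from the thymus onward, so that the allele is recombined before the cells are transferred, and the presence of Cre itself goes with the genotype and cannot be told apart from the loss of HDAC1. Naive cells were given intravenously to CD45.1+ hosts, whose own genotype is given no further. The hosts were immunised in the footpad with the MOG35-55 peptide in complete Freund's adjuvant (CFA) after 18 hours. Popliteal lymph nodes were taken 4 days after that, and 500 sorted 2D2+ CD4+ CD45.2+ cells made 1 library, from 2 pooled mice. There were 3 such biological replicates per genotype; whether replicates of both genotypes shared donors or a day is not stated in the sources used here.

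The respiratory chain passes electrons from NADH (complex I) and succinate (complex II) through coenzyme Q to complex III, through cytochrome c to complex IV and there to oxygen. Complexes I, III and IV pump protons out of the matrix, and ATP synthase (complex V) lets them flow back to make ATP. Most subunits are encoded in the nucleus and imported, while a small core of complexes I, III, IV and V is translated inside the organelle from mitochondrial DNA, so that an assembled complex needs products of both genomes. Activated T cells enlarge their mitochondrial content as they leave quiescence and divide, which makes these genes a common readout of T cell activation.

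Total counts ran from 19956153 to 55900237 per library. Hdac1 stood at 14.7 to 17.2 CPM (counts per 1000000 of the TMM-scaled total) in HDAC1-cKO and at 234 to 244 CPM in WT, in accord with the labels of all 6 libraries. HDAC1-cKO replicate 2 stood apart. Across 8215 well covered genes its values, taken against the 6-library average, followed GC content (Pearson r = 0.61). For the remaining 5 libraries r lay between -0.31 and -0.066. Replicate 2 is part of that average, so these 5 values are not independent of its trend. Of 8 T cell markers all were detected, and edgeR called Cd3e and Cd2 lower in HDAC1-cKO. Cd3e was called in 3 and Cd2 in 1 of the 6 fits with 1 library left out, and without HDAC1-cKO replicate 2 Cd3d, Cd3g and Cd5 were called lower as well. Summed B cell markers stood at 137 to 295 CPM in HDAC1-cKO and 70.0 to 155 CPM in WT, most of it Ighm. Cd79b stood at 18.8, 25.9 and 18.6 CPM in HDAC1-cKO and 10.5, 12.4 and 8.69 CPM in WT, without overlap (edgeR adjusted p = 0.0592). DESeq2, which called 5.05% of all genes higher, called Cd79b and Ighm higher. Offsets for GC content and length also gave Cd79b (background 1.63%). The median log2 fold change of the 6 B cell markers was 0.62, but -0.34 without HDAC1-cKO replicate 2. Summed myeloid and dendritic cell markers stood at 17.1 to 38.6 and 10.7 to 61.2 CPM. The summed CD8 T cell markers did not overlap, at 65.6 to 72.2 CPM in HDAC1-cKO and 45.4 to 59.3 CPM in WT; nearly all of the sum was Cd8b1 (log2 fold change 0.46 ± 0.14, edgeR adjusted p = 0.127), which DESeq2 called higher, while Cd8a overlapped at 0.936 to 2.54 and 0.0182 to 2.37 CPM. Summed NK cell markers stood at 3.77 to 15.3 and 5.56 to 20.4 CPM, erythroid markers at 0.490 to 1.42 and 0.721 to 2.47 CPM, and lymph node stroma markers, mostly Pecam1, at 57.9 to 81.4 and 63.8 to 99.1 CPM, all with overlap. Of these lists Klra8, Ncr1, Csf1r, Flt3, Hbb-bs, Hbb-bt and Pdpn were at 0 in every library, while other genes of the same lists were detected. Over the 6 libraries Klrd1 ran from 1.26 to 18.1 CPM, Lyz2 from 0.981 to 22.6 CPM and H2-Aa from 3.43 to 35.1 CPM. Hba-a1 ran from 0.368 to 2.03 CPM and Pecam1 from 57.7 to 98.3 CPM. The zeros therefore do not show that a cell type was absent. These libraries are bulk samples, in which fewer cells of a type and less RNA per cell cannot be told apart, and the part of other cells in the results was not tested.

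No nuclear member passed the test, yet most stood slightly higher in HDAC1-cKO. Of 95 nuclear members 89 were tested, and edgeR's quasi-likelihood test called 0 higher and 0 lower at a Benjamini-Hochberg adjusted p under 0.05, over 15519 genes of which 0.979% were called higher and 0.992% lower. The median log2 fold change of the 89 members was 0.26, beside -0.0021 over all genes tested. Fold changes were above 0 for 81 of them (91.0%, against 49.7% of all genes). For 51 of the 89 every HDAC1-cKO library lay above every WT library, and for 0 every one lay below; over all genes tested these shares were 12.7% and 11.8%. At an unadjusted p under 0.05 there were 38 members, all higher, against 8.62% of all genes higher. The members are abundant and short, with a median of 206 FPKM and 1021 bases against 4.52 FPKM and 2534 bases over all genes tested, and the part of abundance and length in these shares was not tested.

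Other tools did call members. DESeq2 called 16 nuclear members higher and 0 lower, where the shares over all genes it tested were 5.05% and 4.76%. With limma-voom and sample weights 15 were called higher and 0 lower, where these shares were 4.96% and 5.28%. On simulated counts 25.5% of DESeq2 calls, 6.47% of limma-voom calls and 5.63% of edgeR calls were false. These counts were drawn with dispersions estimated by edgeR and without a library that follows GC content. The shares of false calls in the real data may therefore differ. A filter of 10 CPM in 3 libraries gave 2 higher, Ndufa5 and Ndufb6 (background 2.46%), and an adjusted p under 0.10 in place of 0.05 gave 5, Ndufb6, Atp5s, Ndufv1, Ndufa12 and Ndufa5 (background 2.61%). Offsets that remove each library's GC trend gave 4 higher, Atp5s, Ndufa5, Ndufb6 and Uqcr11 (background 1.71%), and offsets for GC content and length gave 3, Ndufa5, Ndufb6 and Uqcr11 (background 1.63%). The share of all counts that fell on nuclear members came to 2.60, 3.02 and 2.57% for replicates 1, 2 and 3 of HDAC1-cKO and to 2.30, 2.20 and 2.1905% for those of WT. All 3 HDAC1-cKO libraries lay above all 3 WT libraries, and HDAC1-cKO replicate 2 lay farthest.

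Without HDAC1-cKO replicate 2 the median of the nuclear members was 0.16, and 74 of 89 were above 0. Ndufa5, Ndufb6 and Uqcr11 were then called higher, against 1.6% of all genes. Both remaining HDAC1-cKO libraries lay above all WT libraries for 60 of the 89 members, where the share over all genes tested was 20%, and below them for 2, against 19.4% of all genes. The median deviation of the members from the WT mean came to 0.19, 0.41 and 0.14 for replicates 1, 2 and 3 of HDAC1-cKO, and lay between -0.016 and 0.033 in the WT libraries.

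**Figure D1:**
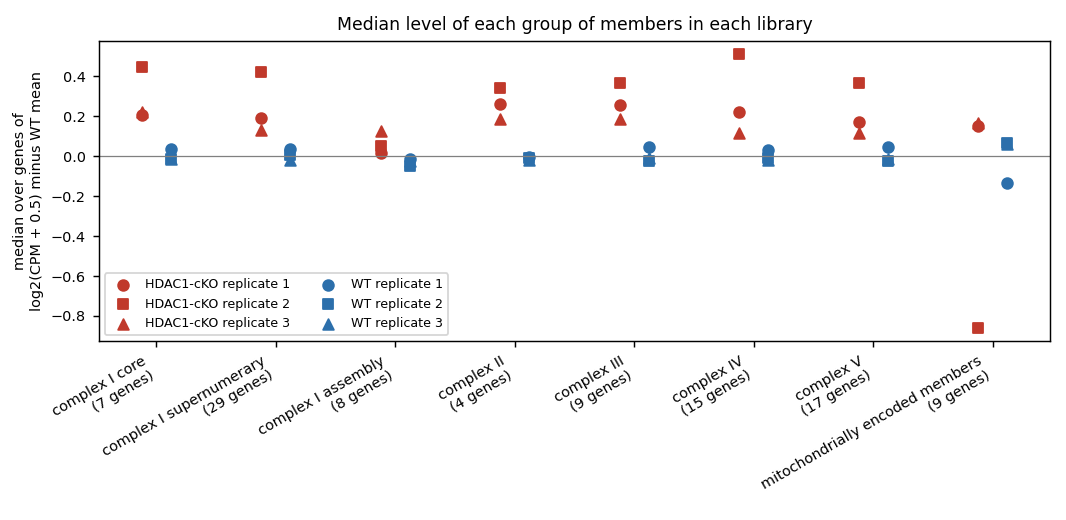
Median over the tested members of each group of log2(CPM + 0.5) minus the WT mean (vertical axis, log2 units), by complex (horizontal axis), for each of the 6 libraries. HDAC1-cKO libraries (red) lie above WT libraries (blue) in each nuclear group, complex I assembly included, with HDAC1-cKO replicate 2 (square) farthest in all of these but complex I assembly, while the mitochondrially encoded group has HDAC1-cKO replicate 2 at -0.86.

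The core subunits of complex I carry its flavin and iron-sulphur clusters and the site of quinone reduction. All 7 nuclear core genes had fold changes above 0, with a median of 0.22. For 4 of them (57.1%) every HDAC1-cKO library lay above every WT library, against 12.7% of all genes tested. Ndufv1 encodes the subunit that binds NADH and the flavin. It stood at 233, 239 and 218 CPM in HDAC1-cKO and 177, 179 and 171 CPM in WT, replicates 1 to 3 in order as throughout. Every HDAC1-cKO library lay above every WT library, by more than the spread within either group, and the log2 fold change was 0.39 ± 0.095 (SE; edgeR adjusted p = 0.0803). Ndufs3, which lies in the arm that faces the matrix, stood at 122, 153 and 129 CPM in HDAC1-cKO and 112, 107 and 106 CPM in WT, again with no overlap (0.31 ± 0.12 on the log2 scale, edgeR adjusted p = 0.227), and 17.9% of its 50-base stretches occur in other annotated genes. Ndufs8, an iron-sulphur subunit and the core gene of highest level per length at 230.0 FPKM, stood at 279, 401 and 289 CPM in HDAC1-cKO and 260.3, 277 and 297 CPM in WT. There the groups overlapped, and only HDAC1-cKO replicate 2 stood clear of the rest. The smallest difference of the class was that of Ndufs1, at 0.15 ± 0.12 on the log2 scale (edgeR adjusted p = 0.586), from 164, 133 and 160.2 CPM in HDAC1-cKO and 145, 131 and 136 CPM in WT.

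Supernumerary subunits surround the core of complex I and are needed for its assembly and stability. Of 29 such genes 28 had fold changes above 0, with a median of 0.27. Against 12.7% of all genes tested, 17 of the 29 (58.6%) had all HDAC1-cKO libraries above WT. Without HDAC1-cKO replicate 2 their median was 0.16, and with limma-voom 0.15. Ndufb6, of the membrane arm, stood at 156, 173 and 149 CPM in HDAC1-cKO and 121, 114 and 113 CPM in WT. It had the lowest p of all members, with a log2 fold change of 0.46 ± 0.11 (edgeR adjusted p = 0.0695), and no HDAC1-cKO library came near the WT range. In the annotation 39.0% of its exon bases overlap Smim27 on the opposite strand; the library kit does not mark strand, so reads from the overlap cannot be assigned, and the count of Smim27 was 4.69% of that of Ndufb6. Ndufa12, in the matrix arm, stood at 189, 188 and 182 CPM in HDAC1-cKO and 147, 143 and 131 CPM in WT (0.41 ± 0.10 on the log2 scale, edgeR adjusted p = 0.0819), and it shares 17.7% of its 50-base stretches with Gm15920. The groups did not overlap.

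Ndufa5, a further subunit of the matrix arm, stood at 145, 131 and 138 CPM in HDAC1-cKO and 111, 96.1 and 94.6 CPM in WT (0.46 ± 0.11 on the log2 scale, edgeR adjusted p = 0.0825); it lies just outside the rule for named genes and is given because alternatives called it. It shares no 50-base stretch with another annotated gene and overlaps none. Ndufa11, a membrane subunit, had the largest fold change of the class at 0.51 ± 0.15 (edgeR adjusted p = 0.140), from 264, 372 and 257 CPM in HDAC1-cKO and 203, 221 and 202 CPM in WT. Its libraries did not overlap, and HDAC1-cKO replicate 2 stood far above the other 2 of its group. Ndufb5 was the only one of the 29 below 0, at -0.076 ± 0.10 (edgeR adjusted p = 0.776), from 128, 125 and 114 CPM in HDAC1-cKO and 129.6, 131 and 127 CPM in WT. The opposite-strand gene Mrpl47 covers 12.3% of the exon bases of Ndufb5 and has a count 27.4% as large. Ndufb7 had the highest level per length of the class at 596 FPKM. It stood at 355, 516 and 338 CPM in HDAC1-cKO and 344, 349.5 and 351 CPM in WT. For Ndufb7 HDAC1-cKO replicate 2 was the high library, while replicate 1 lay just above the WT values and replicate 3 just below them.

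The 8 assembly factors of complex I are not part of the finished enzyme, and they behaved less uniformly: 6 were above 0 and 2 below, with a median of 0.21. The libraries separated for 1, Ndufaf6 (12.5%), near the 12.7% of all genes tested that lay higher without overlap. The median of the assembly factors was 0.027 without HDAC1-cKO replicate 2, and 0.068 with limma-voom and 0.12 with offsets for GC content and length. Whether this differs from the subunits was not tested. Ndufaf6 stood at 28.5, 29.1 and 25.8 CPM in HDAC1-cKO and 22.0, 18.1 and 18.2 CPM in WT (0.52 ± 0.15 on the log2 scale, edgeR adjusted p = 0.121), and all HDAC1-cKO libraries lay above WT. Ndufaf5, an enzyme that modifies Ndufs7, had the lowest fold change of all nuclear members at -0.14 ± 0.15 (edgeR adjusted p = 0.723), from 20.3, 17.4 and 19.0 CPM in HDAC1-cKO and 20.8, 19.0 and 22.5 CPM in WT, with overlapping groups. Ndufaf2, a chaperone related to Ndufa12, stood at 35.5, 26.0 and 34.0 CPM in HDAC1-cKO and 30.3, 25.4 and 26.3 CPM in WT (edgeR adjusted p = 0.570). The opposite-strand gene B230220B15Rik covers 65.6% of the exon bases of Ndufaf2 with a count of 0.15% of it. Ndufaf8, a partner of Ndufaf5 and the assembly factor of highest level per length at 71.0 FPKM, stood at 49.5, 77.5 and 54.4 CPM in HDAC1-cKO and 48.6, 56.4 and 52.4 CPM in WT, with HDAC1-cKO replicate 2 alone above the others (edgeR adjusted p = 0.640).

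Complex II is the succinate dehydrogenase of the tricarboxylic acid cycle and has no subunit encoded in mitochondrial DNA. All 4 genes had fold changes above 0, with a median of 0.28. Against 12.7% of all genes tested, all HDAC1-cKO libraries lay above WT for 3 of the 4 (75%). The membrane anchors Sdhc and Sdhd, which hold the haem and the quinone site, were among these. Sdhd stood at 259, 275 and 226 CPM in HDAC1-cKO and 189, 207 and 189 CPM in WT (0.38 ± 0.11 on the log2 scale, edgeR adjusted p = 0.129). Sdhc stood at 184, 177 and 182 CPM in HDAC1-cKO and 147, 143 and 151 CPM in WT (0.30 ± 0.094 on the log2 scale, edgeR adjusted p = 0.148). In both genes each HDAC1-cKO library exceeded each WT library. Sdhb, the iron-sulphur subunit and the most abundant of the 4 per length at 485 FPKM, stood at 585, 679.7 and 569.5 CPM in HDAC1-cKO and 508, 514 and 509 CPM in WT (edgeR adjusted p = 0.242), also without overlap. Sdha, the flavoprotein that oxidises succinate, stood at 274, 255 and 265 CPM in HDAC1-cKO and 264, 249 and 248 CPM in WT, with overlapping ranges and the smallest fold change of the complex, 0.060 ± 0.094 (edgeR adjusted p = 0.812).

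Complex III hands electrons from coenzyme Q to cytochrome c. Its 9 nuclear genes had a median log2 fold change of 0.30, and 8 were above 0. Against 12.7% of all genes tested, 6 of the 9 (66.7%) had all HDAC1-cKO libraries above WT. The median was 0.22 without HDAC1-cKO replicate 2 and 0.17 with offsets for GC content and length. Uqcr11, one of the small subunits, stood at 261, 374 and 277 CPM in HDAC1-cKO and 209.7, 205 and 208 CPM in WT. This was the largest difference of the complex, 0.55 ± 0.15 on the log2 scale (edgeR adjusted p = 0.1003); the WT libraries lay close together, and HDAC1-cKO replicate 2 was far above replicates 1 and 3. Without that replicate the log2 fold change of Uqcr11 was 0.37 (edgeR adjusted p = 0.0420). Cyc1, the cytochrome c1 haem protein, stood at 393, 387 and 365 CPM in HDAC1-cKO and 316, 297 and 304 CPM in WT (0.32 ± 0.092 on the log2 scale, edgeR adjusted p = 0.121), with HDAC1-cKO replicate 2 between the other 2 replicates. Uqcr10, a small subunit and the gene of highest level per length at 771 FPKM, stood at 336, 498 and 345 CPM in HDAC1-cKO and 295, 279.7 and 277 CPM in WT (edgeR adjusted p = 0.181). Uqcrb, which lies near the quinone reduction site, was the one gene below 0, at -0.064 ± 0.14 (edgeR adjusted p = 0.877), from 208, 159 and 198 CPM in HDAC1-cKO and 220.0, 197 and 173 CPM in WT. Its groups overlapped, and 25.5% of its 50-base stretches occur in other annotated genes.

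In complex IV, cytochrome c oxidase, the nuclear subunits surround the catalytic core made in the organelle, and several exist as tissue isoforms. Of 20 rows 15 were tested, with a median of 0.28, and 14 were above 0. Against 12.7% of all genes tested, 9 of the 15 (60%) had all HDAC1-cKO libraries above WT. The median was 0.16 when HDAC1-cKO replicate 2 was left out. Cox5b, which binds zinc, stood at 387, 448 and 383 CPM in HDAC1-cKO and 322, 312 and 310.0 CPM in WT (0.37 ± 0.10 on the log2 scale, edgeR adjusted p = 0.112), and 11.9% of its 50-base stretches occur in Gm11273. Cox4i1, the general isoform of subunit 4 and the nuclear member of highest level per length at 1419 FPKM, stood at 1147, 1435 and 1065 CPM in HDAC1-cKO and 1014, 962 and 973 CPM in WT (0.31 ± 0.13 on the log2 scale, edgeR adjusted p = 0.264). Cox8a stood at 531, 731 and 538 CPM in HDAC1-cKO and 446, 426 and 462 CPM in WT (0.43 ± 0.14 on the log2 scale, edgeR adjusted p = 0.160). Emc8 covers 9.9% of the exon bases of Cox4i1 on the opposite strand, with a count 8.3% as large. In each of these 3 genes all HDAC1-cKO libraries exceeded all WT libraries, and HDAC1-cKO replicate 2 was the highest.

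The isoforms known from other tissues were low but not all absent. Cox4i2, an isoform known from lung and induced by low oxygen, stood at 0.613, 1.39 and 0.294 CPM in HDAC1-cKO and 0.156, 0.109 and 0.184 CPM in WT. Its log2 fold change of 2.36 ± 0.72 was the largest of all members (edgeR adjusted p = 0.143) and rests on few counts, 20, 52 and 6 in HDAC1-cKO and 8, 6 and 7 in WT. Cox6b2, known from testis, stood at 1.04, 2.78 and 1.52 CPM in HDAC1-cKO and 0.195, 0.708 and 0.553 CPM in WT (1.87 ± 0.61 on the log2 scale, edgeR adjusted p = 0.161). In both genes the HDAC1-cKO libraries lay above the WT libraries, and HDAC1-cKO replicate 2 was the highest. Cox7a1, known from heart and skeletal muscle, stood at 16.7, 28.9 and 14.9 CPM in HDAC1-cKO and 10.9, 13.6 and 13.2 CPM in WT (0.69 ± 0.27 on the log2 scale, edgeR adjusted p = 0.239); its lowest HDAC1-cKO library was just above the highest WT library. Cox6a2, Cox7b2, Cox8b and Cox8c, isoforms of muscle or testis, and the second identifier of Atp5o were at 0 in every library, and Ndufa4l2 had 0.092, 0 and 0.34 CPM in HDAC1-cKO and 0 in WT. These 6 rows were not tested.

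The general partners of these isoforms were far more abundant per length. Cox6a1 had a mean of 1150.5 FPKM, Cox6b1 912 FPKM beside 1.51 FPKM for Cox6b2, and Cox4i1 1419 FPKM beside 0.573 FPKM for Cox4i2. Cox7a2 had 546 FPKM, Cox7a2l, a factor of supercomplex assembly, 122 FPKM and Cox7a1 30.2 FPKM. Cox7a2 (0.13 ± 0.13 on the log2 scale), Cox7a2l (-0.024 ± 0.11) and Cox7b (0.033 ± 0.098) overlapped between genotypes (edgeR adjusted p = 0.697, 0.948 and 0.909). Cox6a1 stood at 639, 897 and 649.9 CPM in HDAC1-cKO and 613, 579 and 612 CPM in WT, and Cox6b1 at 564, 765 and 563 CPM in HDAC1-cKO and 517, 511 and 503 CPM in WT. In both, HDAC1-cKO replicates 1 and 3 lay only slightly above WT and replicate 2 far above (edgeR adjusted p = 0.388 and 0.306). Ndufa4 stood at 479, 505 and 439 CPM in HDAC1-cKO and 406, 406 and 389 CPM in WT (0.24 ± 0.097 on the log2 scale, edgeR adjusted p = 0.247), without overlap.

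**Figure D2:**
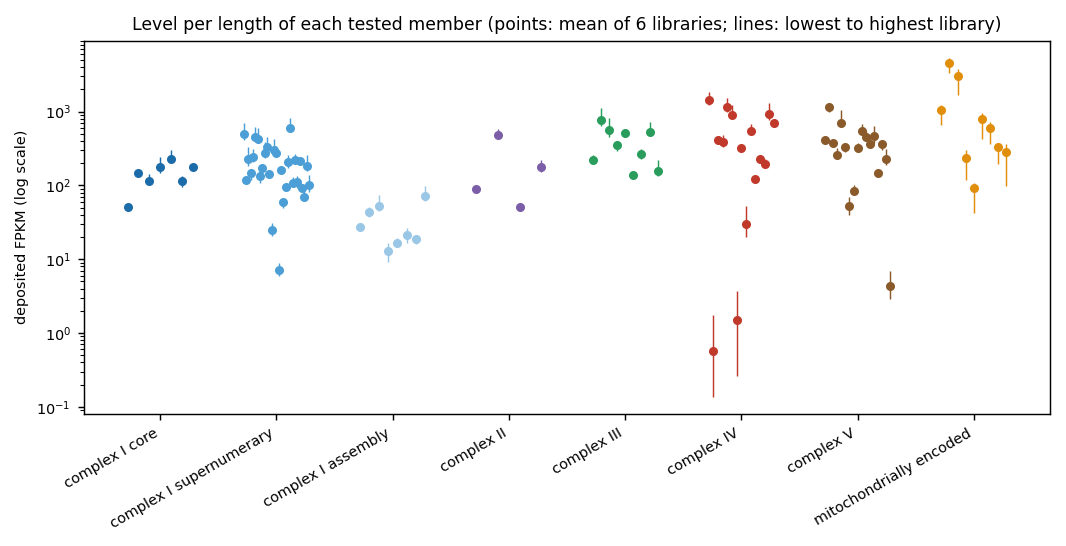
Deposited FPKM (vertical axis, log scale) of each tested member by group (horizontal axis), with points for the mean of 6 libraries and lines from the lowest to the highest library. Cox4i2, Cox6b2 and Atp5s lie far below the other members of complexes IV and V. Nuclear members other than these 3 reach from 7.10 FPKM (Ndufb2) to 1419 FPKM (Cox4i1), and assembly factors of complex I have a median of 24.3 FPKM.

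In complex V the F1 head makes ATP and the Fo part carries protons through its ring of c subunits. Of 18 rows 17 were tested, with a median of 0.23, and 14 were above 0. Against 12.7% of all genes tested, 11 of the 17 (64.7%) had all HDAC1-cKO libraries above WT. Leaving out HDAC1-cKO replicate 2 gave a median of 0.10. Atp5b, the catalytic beta subunit and the complex V gene of highest level per length at 1148 FPKM, stood at 2529.8, 2282 and 2389 CPM in HDAC1-cKO and 2178, 1922 and 2052 CPM in WT (0.23 ± 0.095 on the log2 scale, edgeR adjusted p = 0.275). Each HDAC1-cKO library lay above each WT library. Atp5o, which joins the head to the stalk, stood at 214, 267 and 199.8 CPM in HDAC1-cKO and 164, 161 and 166 CPM in WT (0.47 ± 0.13 on the log2 scale, edgeR adjusted p = 0.108), also without overlap. Of its 50-base stretches 41.6% occur in other annotated genes, among them Gm15976. Atp5s, a coupling factor that is no structural subunit, stood at 8.27, 8.40 and 11.1 CPM in HDAC1-cKO and 4.66, 5.47 and 4.61 CPM in WT. It had the lowest p and the largest fold change of the complex, 0.91 ± 0.22 (edgeR adjusted p = 0.0777), with HDAC1-cKO replicate 3 rather than replicate 2 as the highest library, and at 4.38 FPKM it was the least abundant tested member of complex V.

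The 3 genes for the c ring encode the same mature protein from different precursors. Atp5g1 stood at 279, 349.6 and 284 CPM in HDAC1-cKO and 260.2, 199.8 and 203 CPM in WT (0.46 ± 0.15 on the log2 scale, edgeR adjusted p = 0.152). Atp5g3 stood at 246, 275 and 260.2 CPM in HDAC1-cKO and 210.0, 210.4 and 208 CPM in WT (0.31 ± 0.095 on the log2 scale, edgeR adjusted p = 0.138), and Atp5g2 at 58.7, 74.3 and 62.1 CPM in HDAC1-cKO and 59.8, 56.2 and 62.7 CPM in WT (0.13 ± 0.13 on the log2 scale, edgeR adjusted p = 0.701). Atp5g1 and Atp5g3 did not overlap between genotypes, whereas Atp5g2 did; 38.3% of the 50-base stretches of Atp5g2 occur in other genes, most of them in Gm10175. Per length Atp5g3 was the most abundant of the 3 at 320.5 FPKM, against 84.2 for Atp5g2 and 52.8 for Atp5g1. Atp5f1, the b subunit of the stalk, had the lowest fold change of the complex at -0.013 ± 0.12 (edgeR adjusted p = 0.974), from 575, 457 and 595 CPM in HDAC1-cKO and 570.4, 540.2 and 530.4 CPM in WT. For Atp5f1 HDAC1-cKO replicate 2 was the lowest of all 6 libraries.

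**Figure D3:**
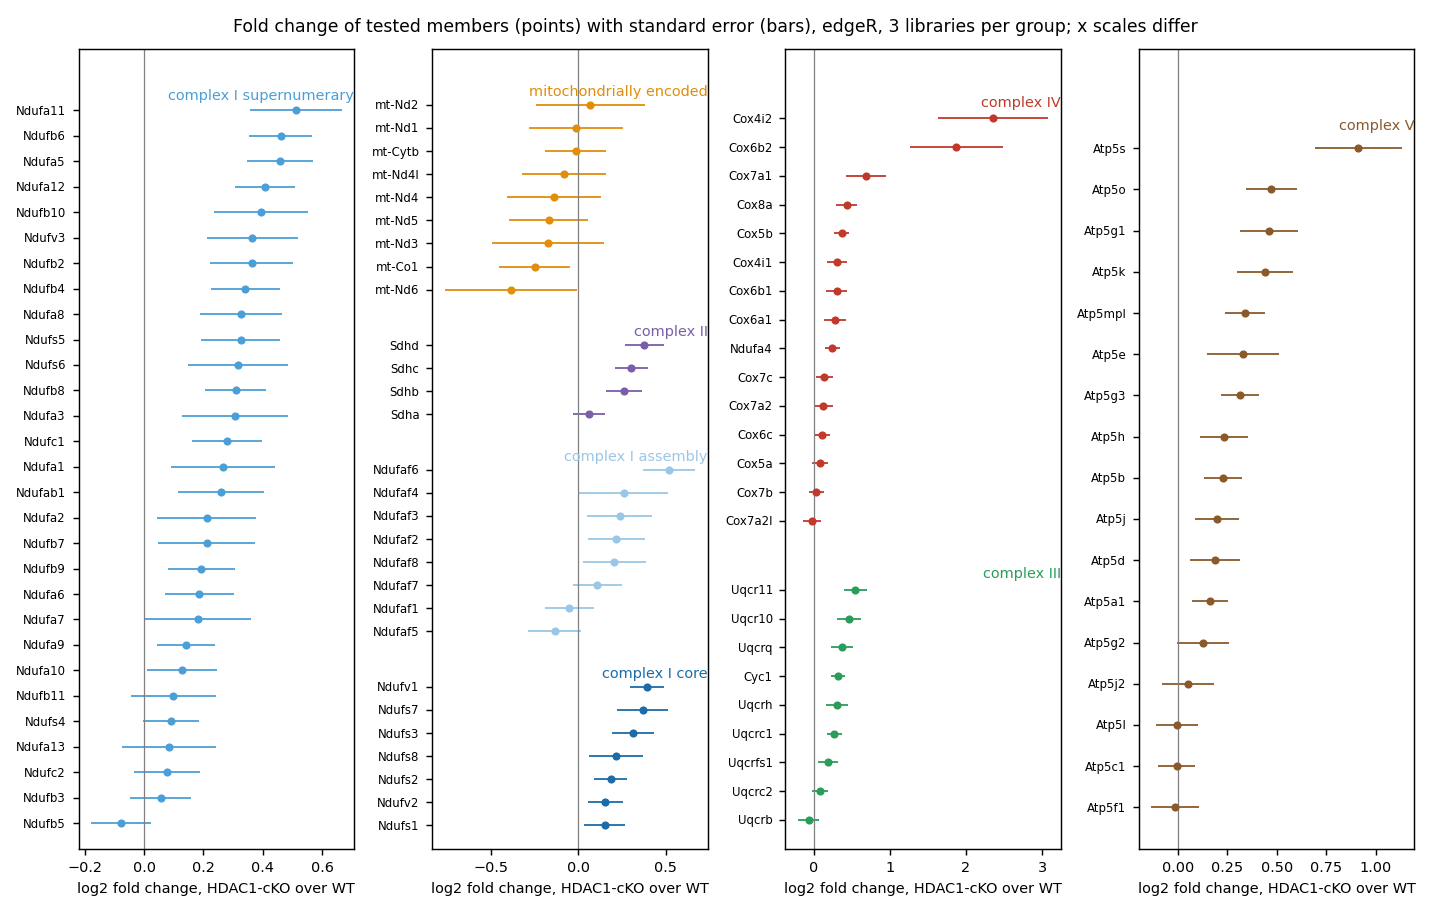
Log2 fold change of HDAC1-cKO over WT (horizontal axis, scale differs between panels) of the 98 tested members (vertical axis) from edgeR, with bars for the standard error, 3 libraries per group. Points lie to the right of 0 for 81 of 89 nuclear members and 1 of 9 mitochondrially encoded members; no member passed an adjusted p of 0.05.

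HDAC1-cKO replicate 2 moved with GC content among the members as well. Over the 89 nuclear members its deviation from the WT mean had a Pearson r of 0.61 with GC content and -0.38 with log2 length, against 0.018 and 0.029 with GC content in HDAC1-cKO replicates 1 and 3. The WT libraries gave -0.34, -0.023 and 0.46. The genes are not independent and share the depth and chemistry of each library, so these are descriptions. With offsets for GC content the median of the nuclear members was 0.25 with 85 of 89 above 0, and with offsets for GC content and length it was 0.17 with 80 above 0. The mitochondrially encoded members are AT-rich, with a median GC content of 37.1% against 50.5% for the nuclear members. They are not part of these r values. The offsets applied to them were fitted on genes of nuclear chromosomes only. The part of GC content in their values was not tested.

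**Figure D4:**
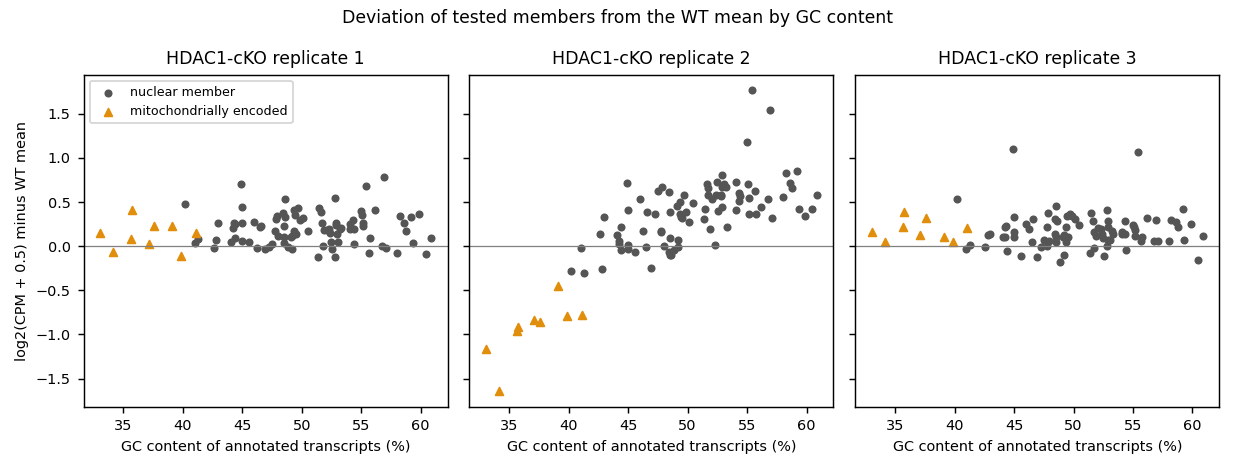
Deviation of each tested member from the WT mean in log2(CPM + 0.5) (vertical axis) against the GC content of its annotated transcripts in percent (horizontal axis), in HDAC1-cKO replicates 1, 2 and 3; grey points are 89 nuclear and orange triangles 9 mitochondrially encoded members. Replicate 2 shows a slope (r = 0.61 over nuclear members) that replicates 1 and 3 do not show (r = 0.018 and 0.029).

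In HDAC1-cKO replicate 2 the nuclear and the mitochondrially encoded members deviated from WT in opposite directions. Of the 13 mitochondrially encoded members 9 were tested and 0 were called in either direction, against 1.97% of all genes; at an unadjusted p under 0.05 there were 0 as well, against 17% of all genes. DESeq2 and limma-voom also called 0, where they called 9.81% and 10.2% of all genes in either direction. Their median log2 fold change was -0.14 with 1 of 9 above 0. Without HDAC1-cKO replicate 2 the median was 0.15 with 7 of 9 above 0, and with offsets for GC content it was 0.17, so the sign turned with 1 library and with the GC correction. Counts on these 13 genes made up 1.41, 0.806 and 1.44% of all counts in HDAC1-cKO and 1.12, 1.30 and 1.27% in WT. Replicates 1 and 3 of HDAC1-cKO lay above the WT range and replicate 2 below it.

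By gene, mt-Cytb, the cytochrome b of complex III, had the highest level per length of all members at 4589.8 FPKM. It stood at 6234, 3894 and 5729 CPM in HDAC1-cKO and 4738, 5701 and 5575 CPM in WT (-0.014 ± 0.18 on the log2 scale, edgeR adjusted p = 0.980). mt-Nd1, the complex I subunit beside the quinone site, stood at 3485, 1635 and 3703 CPM in HDAC1-cKO and 2793, 3019 and 3092 CPM in WT (-0.013 ± 0.27, edgeR adjusted p = 0.988). In both genes HDAC1-cKO replicate 2 was the lowest library and replicates 1 and 3 were the highest of all 6. Of the proton-pumping subunits of complex I, mt-Nd2 stood at 315, 126 and 310.1 CPM in HDAC1-cKO and 216, 273 and 228 CPM in WT (0.068 ± 0.31, edgeR adjusted p = 0.945), mt-Nd4 at 1237, 599.6 and 1356 CPM in HDAC1-cKO and 1064, 1229.5 and 1218 CPM in WT (-0.14 ± 0.27, adjusted p = 0.857) and mt-Nd5 at 655, 359 and 704 CPM in HDAC1-cKO and 621, 659.9 and 650.4 CPM in WT (-0.17 ± 0.23, adjusted p = 0.777). The same library was the low one in each. The small subunit genes mt-Nd3 and mt-Nd4l stood at 37.6, 14.8 and 38.0 CPM in HDAC1-cKO and 35.6, 32.4 and 33.7 CPM in WT and at 207, 109 and 215 CPM in HDAC1-cKO and 172, 187 and 202 CPM in WT (edgeR adjusted p = 0.850 and 0.911). mt-Nd6, the only member on the other strand of the mitochondrial genome and one of the most AT-rich at 34.1% GC, stood at 158, 52.5 and 171 CPM in HDAC1-cKO and 147, 189 and 164 CPM in WT (-0.39 ± 0.38, edgeR adjusted p = 0.681). Its HDAC1-cKO replicate 2 was farther below the rest than in any other mitochondrially encoded member tested. Its gene overlaps mt-Nd5 on the opposite strand over 2.7% of its exon bases, and without strand reads from that stretch cannot be assigned. mt-Co1, the haem-copper core of complex IV, stood at 1664, 1037 and 1859 CPM in HDAC1-cKO and 1617, 1883 and 1921 CPM in WT (-0.25 ± 0.20, edgeR adjusted p = 0.605).

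The other 4 mitochondrially encoded members had almost no counts in the deposited table. mt-Co2, the subunit that receives electrons from cytochrome c, had 3 counts, all in WT replicate 3, and mt-Co3 had 1 count each in HDAC1-cKO replicate 1 and WT replicate 2. mt-Atp6, through which protons pass in ATP synthase, and mt-Atp8 had 0 counts. A count of 0 in the smallest library allows up to 0.147 CPM (3 counts; counting error only, since the reads carry no molecular identifiers). The annotation used for the table, GENCODE M21 on GRCm38, holds a stretch of chromosome 1 with unprocessed pseudogenes that copy this part of the mitochondrial genome, and the counts stood there. Gm28661 (chromosome 1, 24614885 to 24615565, minus strand) matches mt-Co2 at all 681 aligned bases. Gm10925 (24613974 to 24614651) matches mt-Atp6 at all 678 and Gm28437 (24613189 to 24613971) matches mt-Co3 at all 783. They share 99.5, 99.5 and 99.9% of the 50-base stretches of these genes, the length of a read. How the submitters' counting placed reads that fit several places is not stated in the sources used here.

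A window of mt-Co2 and the same window of Gm28661 are shown because a read from either cannot be told apart, and a window of mt-Nd3 and Gm28438 because they differ by 1 base, T3C, counted from the first base of the gene and printed in capitals.
mt-Co2, chrM:7325-7384, plus strand: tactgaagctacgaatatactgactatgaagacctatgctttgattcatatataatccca
Gm28661, chr1:24615194-24615253, minus strand: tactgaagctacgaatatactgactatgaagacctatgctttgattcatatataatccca
mt-Nd3, chrM:9459-9490, plus strand: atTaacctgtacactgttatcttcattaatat
Gm28438, chr1:24613088-24613119, minus strand: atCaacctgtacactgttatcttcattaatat
The mt-Co2 pair is identical over its 60 bases and therefore has no capitals. All 4 sequences are the GENCODE M21 transcripts, given 5′ to 3′.

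Gm10925 stood at 6751, 2790.4 and 6244 CPM in HDAC1-cKO and 5951, 6737 and 6270.4 CPM in WT. Gm28437 stood at 2438, 2054 and 2451 CPM in HDAC1-cKO and 2098, 2339 and 2353 CPM in WT, and Gm28661 at 1320.4, 1023 and 1419 CPM in HDAC1-cKO and 1233, 1396 and 1393 CPM in WT. HDAC1-cKO replicate 2 was the lowest library in each, most clearly in Gm10925. For mt-Nd3 the counts were split, with 47.4% of the sum on Gm28438. For mt-Co1, 51.8% of the sum lay on its copies, mainly Gm29216 on chromosome 1 and Gm13340 on chromosome 2. mt-Nd4l and mt-Nd4 went the other way: 98.8 and 62.2% of their 50-base stretches occur in Gm10222 and Gm28439, and these copies held at most 4 counts in a library. mt-Atp8 shares no 50-base stretch with another annotated transcript and had 0 counts. Bases of chromosome 1 outside annotated transcripts, such as any between Gm10925 and Gm28661, were not searched for a copy of it.

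**Figure D5:**
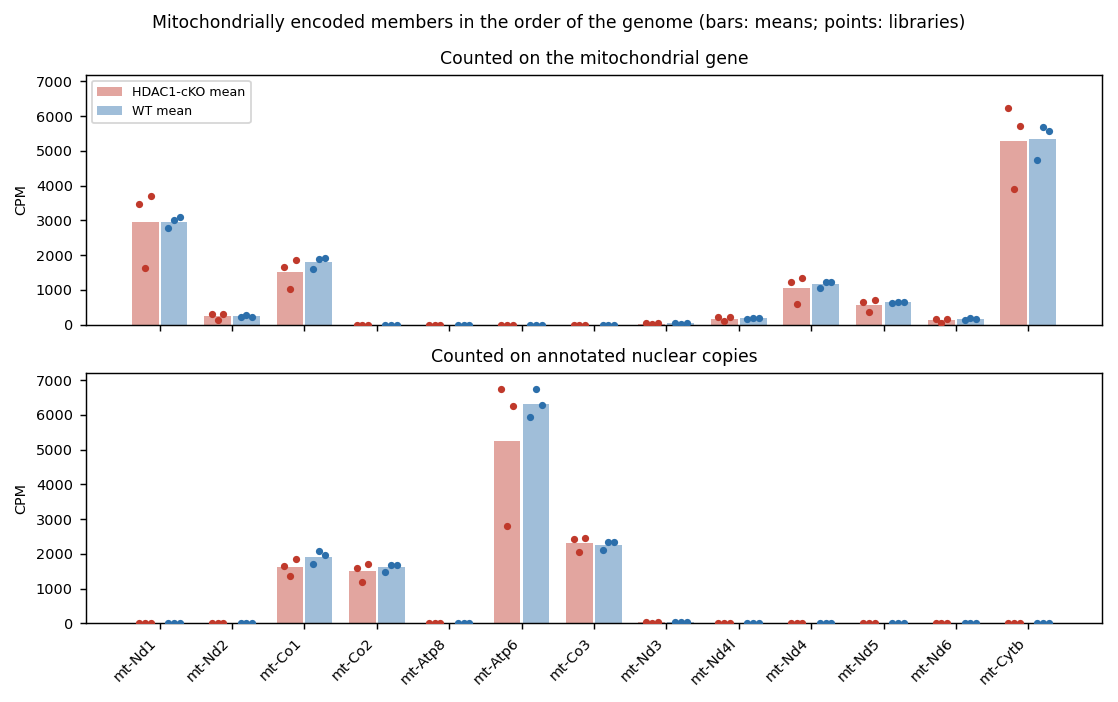
CPM (vertical axes, same scale) counted on each mitochondrially encoded member (upper panel) and on its annotated nuclear copies (lower panel), in the order of the mitochondrial genome; bars are means of 3 libraries and points single libraries of HDAC1-cKO (red) and WT (blue). mt-Co2, mt-Atp6 and mt-Co3 are empty in the upper panel and filled in the lower one, and mt-Co1 is filled in both.

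Summing each member with its copies left the comparison as it was. Of 13 members 12 were then tested, 0 were called in either direction (background 2.03%), and the median log2 fold change was -0.13 with 2 above 0. The summed mt-Atp6 stood at -0.27 ± 0.28 (edgeR adjusted p = 0.709), mt-Co2 at -0.11 ± 0.15 (edgeR adjusted p = 0.770) and mt-Co3 at 0.026 ± 0.11 (edgeR adjusted p = 0.937). The share of all counts on members and copies was 2.66, 1.57 and 2.70% in HDAC1-cKO and 2.23, 2.57 and 2.47% in WT. Replicate 2 of HDAC1-cKO was again the low library, and replicates 1 and 3 lay above the WT range.

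Genes around the respiratory chain were read from lists of assembly factors, carriers and regulators, and 3 of them were called. The lists held 12, 4, 6, 20, 4, 14, 12, 17, 14, 11, 18 and 8 tested genes. Over all genes tested edgeR called 1.97% in either direction. Taken over all lists the 3 calls lay near that share, and the lists were not tested against it. The calls are therefore given as single genes and not as a result about the lists. Chchd10, a small protein of the intermembrane space and cristae, stood at 77.4, 105 and 99.0 CPM in HDAC1-cKO and 31.6, 35.4 and 30.8 CPM in WT. It was higher in every HDAC1-cKO library and rose by 1.53 ± 0.15 on the log2 scale (edgeR adjusted p = 0.00609), the one call among the 12 found supercomplex and cristae factors, whose median was 0.19. Idh2, the NADP-dependent isocitrate dehydrogenase of the matrix, stood at 134, 114 and 140.3 CPM in HDAC1-cKO and 64.9, 59.4 and 68.2 CPM in WT and rose by 1.01 ± 0.12 (edgeR adjusted p = 0.0149), the one call among 18 genes of the tricarboxylic acid cycle and pyruvate dehydrogenase. In that list 15 of 18 were above 0, with a median of 0.22. Fastkd1, a protein of mitochondrial RNA turnover, stood at 5.61, 6.15 and 5.68 CPM in HDAC1-cKO and 13.3, 17.5 and 12.2 CPM in WT and was lower in every HDAC1-cKO library, with a log2 fold change of -1.30 ± 0.21 (edgeR adjusted p = 0.0280), the one call among 14 genes of mitochondrial RNA processing and stability. When 1 library was left out at a time Chchd10 was called in 5 of 6 fits, and Idh2 and Fastkd1 in 1 of 6 each. Without HDAC1-cKO replicate 2 Idh3a and Fastkd2 were called higher in addition, and Fastkd2 also with offsets for GC content and length. These settings called 1.6% and 1.63% of all genes higher. DESeq2 called Lrpprc, Hsd17b10, Fastkd3 and Minos1 of these lists higher too, where it called 5.05% of all genes higher.

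In the other 9 lists edgeR called 0 genes in either direction. Alternatives called some: leaving out HDAC1-cKO replicate 2 gave Slc25a4 as higher (edgeR adjusted p = 0.0380), and Ppargc1b was called with offsets for GC content and length (edgeR adjusted p = 0.0499). The shares of all genes called higher in these settings were 1.6% and 1.63%. DESeq2 called 1 or 2 genes higher in 8 of these 9 lists and 0 lower, where it called 5.05% and 4.76% of all genes. These were Ecsit, Bcs1l, Coa7, Fmc1, Atpaf1, Coq7, Coq6, Top1mt, Ppargc1b and Slc25a4. On the simulated counts, drawn with dispersions estimated by edgeR, 25.5% of DESeq2 calls were false. All 4 assembly factors of complex V were above 0 with a median of 0.42, and all had separate libraries, against 12.7% of all genes higher. Fmc1 stood at 35.2, 40.5 and 32.8 CPM in HDAC1-cKO and 26.9, 25.6 and 26.6 CPM in WT (edgeR adjusted p = 0.134). Atpaf1 stood at 29.0, 30.9 and 29.2 CPM in HDAC1-cKO and 23.6, 21.8 and 22.6 CPM in WT (edgeR adjusted p = 0.170). Assembly factors of complex I outside the member rule had a median of 0.063 with 8 of 12 above 0, led by Ecsit (0.47 ± 0.14, edgeR adjusted p = 0.135) and Nubpl (0.64 ± 0.24, edgeR adjusted p = 0.217). Those of complex II had 0.12 with 4 of 4 above 0 (-0.0096 without HDAC1-cKO replicate 2 and 0.24 with offsets for GC content and length), with the lowest p in Sdhaf2 (0.11 ± 0.10, edgeR adjusted p = 0.664) and Sdhaf1 (0.22 ± 0.26, adjusted p = 0.735). Those of complex III had 0.32 with 5 of 6 (0.17 without that replicate), with Bcs1l, which inserts the Rieske protein, at 0.80 ± 0.24 (edgeR adjusted p = 0.135) and Uqcc2 at 0.51 ± 0.17 (adjusted p = 0.180). Those of complex IV had 0.040 with 11 of 20 tested, with Coa7 at 0.44 ± 0.13 (edgeR adjusted p = 0.133) and Coa6 at 0.31 ± 0.14 (adjusted p = 0.302). Beside the median of 0.26 of the nuclear members, the assembly lists of complexes I and IV thus lay near 0; the difference was not tested.

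Among cytochrome c and the enzymes of coenzyme Q synthesis, 10 of 14 were above 0 with a median of 0.11 (0.17 without HDAC1-cKO replicate 2). Coq7, the hydroxylase late in coenzyme Q synthesis, stood at 60.6, 66.0 and 65.1 CPM in HDAC1-cKO and 48.9, 38.1 and 41.1 CPM in WT (edgeR adjusted p = 0.0700), and Coq6 at 35.7, 42.8 and 35.2 CPM in HDAC1-cKO and 29.2, 22.9 and 27.3 CPM in WT (edgeR adjusted p = 0.133). Of 8 carriers that move ADP, phosphate and protons 6 were above 0; Slc25a4, an ADP/ATP carrier, stood at 695, 662 and 676 CPM in HDAC1-cKO and 535, 493 and 451 CPM in WT (edgeR adjusted p = 0.0609), and Slc25a5 had 0.19 ± 0.093 on the log2 scale (edgeR adjusted p = 0.342). Genes that maintain and transcribe mitochondrial DNA had a median of 0.016 with 9 of 17 above 0 (0.17 with offsets for GC content and length), with Top1mt at 0.83 ± 0.27 (edgeR adjusted p = 0.158) and Tefm at 0.55 ± 0.18 (adjusted p = 0.163). The nuclear regulators of respiratory genes had a median of -0.18, and 5 of 11 tested were above 0. That median was -0.032 without HDAC1-cKO replicate 2 and -0.085 with offsets for GC content and length. Ppargc1b, a coactivator of respiratory genes, stood at 1.87, 2.94 and 1.86 CPM in HDAC1-cKO and 0.234, 0.254 and 0.737 CPM in WT (edgeR adjusted p = 0.0681), without overlap, and Ppargc1a was at 0 in every library. Gabpb1, a subunit of the ETS factor GABP, stood at 99.1, 78.5 and 99.4 CPM in HDAC1-cKO and 128, 115 and 109 CPM in WT (edgeR adjusted p = 0.229), lower in every HDAC1-cKO library.

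Promoter letters were searched because regulators of these genes are known to bind NRF1, ETS and YY1 motifs near the start site. RefSeq promoters on GRCm38.p6, which reach from 250 bases before to 50 bases after the start, matched 76 of 94 nuclear member symbols. On either strand, CGCATGCG, the core of the NRF1 motif, was present in 11 of the 76 (14.5%), against 2.07% of all genes in the table and 4.41% of the genes tested here. AAGATGGC, the YY1 motif, was present in 11 (14.5%), against 3.19 and 5.54%, and CCGGAAG, an ETS motif as bound by GABP, in 18 (23.7%), against 9.93 and 21.3%. None of the 3 motifs contains another, and the NRF1 letters read the same on both strands. The YY1 letters lay on the gene's own strand at or after the start site in 9 of the 11 members, 10 to 38 bases downstream, against 45.4% of the tested genes that hold them. Of these 9 members 8 belong to complex I, counting its assembly factor Ndufaf8. The median log2 fold change was 0.27 with and 0.24 without the NRF1 letters, 0.29 and 0.24 for the ETS letters, and 0.21 and 0.26 for the YY1 letters, over 74 tested members. A match is a description of letters and no evidence of binding.

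The promoters of 3 members are shown, each a window that ends at or before the RefSeq start site with the motif in capitals, taken by lowest p among matched members whose motif lies well inside the upstream part: Ndufa11 for NRF1, and Uqcr11 and Sdhd for ETS, the latter on the opposite strand.
Ndufa11, chr17:56717663-56717750, plus strand: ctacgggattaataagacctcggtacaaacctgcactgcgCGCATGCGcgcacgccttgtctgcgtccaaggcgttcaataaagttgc
Uqcr11, chr10:80406841-80406927, minus strand: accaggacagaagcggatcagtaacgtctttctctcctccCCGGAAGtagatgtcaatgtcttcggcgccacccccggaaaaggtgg
Sdhd, chr9:50603850-50603935, minus strand: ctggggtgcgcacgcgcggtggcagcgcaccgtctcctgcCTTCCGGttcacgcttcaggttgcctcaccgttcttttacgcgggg
The motif starts 59 bases before the start site in Ndufa11, 66 before it in Uqcr11 and 46 before it in Sdhd. Uqcr11 also holds the NRF1 letters across its start site, outside the window shown.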

How the data were processed

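Per the labels' protocols, polyadenylated RNA of sorted cells was amplified by Smart-seq2, strand was not kept by the transposase-based library kit, and single reads of 50 bases were sequenced. The read counts deposited by the authors are whole numbers for 55536 genes in 6 libraries, without normalization, and a second deposited table gives FPKM; 0 columns were left without a sample. Per the submitters' processing notes the tools included STAR 2.5.2b, Picard 2.19.2, DESeq2 1.24.0 and R 3.6.1, and builds GRCm38/mm10 and GRCh38/hg38 were named; the counter, its strand setting and the treatment of reads that fit several places are not stated in the sources used here. All 55536 gene identifiers occur in GENCODE M21 (GRCm38). In the 10896 genes that reached 50 counts in every library, the deposited FPKM equalled the count divided by 1 length per gene and by the library's DESeq2 size factor, so FPKM was used for levels between genes and counts for tests.

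Genes were kept by filterByExpr of edgeR 4.0.16 (R 4.3.3), leaving 15519 genes that hold 99.92% or more of each library's counts. TMM-scaled counts of all 6 libraries were tested two-sided with edgeR's quasi-likelihood F test, robust, with genotype as the term, and p was adjusted by Benjamini-Hochberg over all genes tested. A standard error is the log2 fold change divided by the square root of F. No library repeats another: chi-square per degree of freedom was 11.5 or more for every pair. Alternatives were other scalings and filters, DESeq2 1.42.0, limma-voom and limma 3.58.1 on log2(FPKM + 1) and log2(FPKM + 0.1), thinned counts, GC and length offsets, a replicate block, leaving out each library and an adjusted p of 0.10; sums of mitochondrial genes with their nuclear copies, and library ranges without HDAC1-cKO replicate 2, were added after seeing the data. On simulated counts with 200 changed genes among 15058, edgeR recovered 56.9% of 2-fold and 79.1% of 4-fold changes with 5.63% false calls. Over 15519 genes DESeq2 gave 25.5% and limma-voom 6.47% false calls. The simulated counts used dispersions estimated by edgeR and held no GC trend, so these shares need not hold for the data.

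The members and the lists were chosen with earlier results of these data known. Named members are all mitochondrially encoded ones, and in each class of nuclear members the 2 of lowest p, the highest and lowest fold change and the highest FPKM, the isoform pairs of complexes IV and V, and all untested members; in each list every called gene or, with none, the 2 of lowest p. Genes outside this rule are named as such, as cell type markers or only where counts of 5 or fewer are listed. Coa1, Mic13, Mrpp3 and Prorp of the lists were not found by symbol. Shared 50-base stretches, exon overlaps and alignments were computed from GENCODE M21 and promoters taken from RefSeq. Figures used matplotlib 3.10.9.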

Additional observations from a re-analysis of the deposited data

How the results depend on the processing

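Over all genes, edgeR called 152 higher and 154 lower. DESeq2 called 707 and 667, limma-voom with sample weights 770 and 819, GC offsets 265 and 264, GC and length offsets 253 and 258, and an adjusted p under 0.10 gave 405 and 413; without the low-count filter 243 were called lower. Leaving out 1 library at a time gave 15 to 258 higher and 10 to 368 lower; all of these fits but the one without HDAC1-cKO replicate 2 called 15 to 26 higher and 10 to 23 lower. Nuclear members called higher were 0 in the fit reported, 16 with DESeq2, 15 with limma-voom, 4 with GC offsets, 3 with GC and length offsets, 2 with the filter of 10 CPM, 5 at an adjusted p under 0.10, and 0 to 3 with 1 library left out (3 without HDAC1-cKO replicate 2); the cause was not tested. Their median stayed above 0 in all 22 settings (0.16 to 0.31), and 0 nuclear members were called lower and 0 mitochondrially encoded members called in any of them. The median of the mitochondrially encoded members ran from -0.35 to 0.17.

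With the replicate number as a block, edgeR called 34 genes higher and 31 lower, and 0 members. The numbers are not stated to mark shared donors or days, and deviations of libraries with the same number correlated with r of 0.024, -0.0016 and -0.042, so they were taken not to pair the samples; not every library correlated best with its own number.

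Among the named members, signs turned in genes near 0 and in some farther from it. Ndufaf8 stood at 0.21 in the fit reported, not far from the nuclear median of 0.26, and at -0.023 without HDAC1-cKO replicate 2. With GC offsets, GC and length offsets and limma-voom, in this order, log2 fold changes were 0.14, 0.051 and 0.092 for Atp5f1, 0.15, 0.049 and 0.057 for Uqcrb, 0.26, 0.15 and 0.079 for mt-Cytb, 0.28, 0.16 and 0.20 for mt-Nd1, 0.12, 0.056 and 0.071 for mt-Nd3, 0.18, 0.071 and 0.068 for mt-Nd4, 0.093, 0.032 and 0.093 for mt-Nd4l, and 0.17, 0.081 and 0.020 for mt-Nd5. GC and length offsets gave -0.041 for Atp5g2. Upper quartile factors gave 0.019 for Atp5f1, 0.012 for Cox7a2l, 0.016 for mt-Cytb and 0.015 for mt-Nd1. mt-Nd2 stood at -0.046 with limma on log2(FPKM + 0.1), at -0.046 on log2(FPKM + 1) and at -0.029 with the replicate block. With 1 library left out, log2 fold changes ran from -0.085 to 0.088 for Atp5f1, -0.021 to 0.19 for Cox7a2, -0.11 to 0.014 for Cox7a2l, -0.027 to 0.057 for Cox7b, -0.023 to 0.33 for Ndufaf8, -0.015 to 0.32 for Ndufb7, -0.15 to 0.036 for Uqcrb, -0.16 to 0.16 for mt-Cytb, -0.21 to 0.27 for mt-Nd1, -0.14 to 0.38 for mt-Nd2, -0.37 to 0.15 for mt-Nd3, -0.35 to 0.14 for mt-Nd4, -0.24 to 0.17 for mt-Nd4l and -0.35 to 0.069 for mt-Nd5. In each of these genes except Atp5f1, Cox7a2l, Uqcrb, mt-Cytb, mt-Nd1 and mt-Nd2, the sign turned, among the fits with 1 library left out, only without HDAC1-cKO replicate 2. The cause of these sign changes was not tested. Depth limits Cox4i2 and Cox6b2, which rest on few counts.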

Other observations

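The mitochondrial ribosomal RNAs, which lie outside the rule, had their lowest value in HDAC1-cKO replicate 2 too. mt-Rnr2 stood at 1918, 1032 and 2075 CPM in HDAC1-cKO and 1991, 2137 and 2001 CPM in WT (log2 fold change -0.29 ± 0.23, edgeR adjusted p = 0.602), and mt-Rnr1 at 125, 71.5 and 147 CPM in HDAC1-cKO and 139.7, 176 and 139 CPM in WT (-0.41 ± 0.25, edgeR adjusted p = 0.464). Without HDAC1-cKO replicate 2 the mean share of counts on these 2 RNAs was 0.216%, beside 0.215% in WT, whereas that on the 13 mitochondrially encoded members was 1.42% beside 1.23%. The libraries were made from polyadenylated RNA, so the level of ribosomal RNA in them is no measure of ribosomal RNA in the cells.

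Some processed pseudogenes of members carried counts. Ndufb4c stood at 35.6, 45.5 and 37.8 CPM in HDAC1-cKO and 31.2, 30.9 and 30.7 CPM in WT, beside 63.2, 67.5 and 65.3 CPM and 55.5, 51.6 and 47.6 CPM for Ndufb4, with which it shares 18.3% of 50-base stretches of Ndufb4. Atp5l-ps2 stood at 36.0, 30.7 and 36.3 CPM and 35.8, 37.6 and 38.0 CPM. Whether these counts come from the pseudogenes or from the parent genes was not tested. Ndufb1-ps, which the annotation lists as a noncoding gene and the rule therefore left out, stood at 128, 129 and 123 CPM in HDAC1-cKO and 122, 128 and 119 CPM in WT (0.045 ± 0.098, edgeR adjusted p = 0.876).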
